A study of Mus musculus with 10 samples.

Results

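Transforming growth factor beta (TGF-beta) ligands, receptors, latent-form binders and feedback genes were followed in the mouse optic nerve head, the site where the axons of retinal ganglion cells leave the eye. The 10 genes were the ligands Tgfb1, Tgfb2 and Tgfb3, the receptors Tgfbr1, Tgfbr2 and Tgfbr3, the latent TGF-beta binding proteins Ltbp1 and Ltbp2, the matrix protein Tgfbi and the inhibitor Smad7. They were taken by exact symbol from the probe annotation of the array, which gave 19 of the 22626 non-control probe sets (groups of probes for 1 transcript). All 10 were among the 12393 genes tested. Of the 10 genes, 4 had several probe sets and 6 had 1.

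RNA came from C57Bl/6 male mice aged 6 to 8 weeks with no genetic change named. In the high IOP group the right eye was held at an intraocular pressure (IOP) of 30 mmHg for 1 h by saline led into its front chamber, and the nerve head was collected after 3 days. The control group was the left eye of these mice, which had no operation, so side and surgery went with pressure and cannot be told apart from it. Each array carried a pool of 2 nerve heads, with 5 arrays per group from 10 mice, and pooling hides the spread between single animals.

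TGF-beta is secreted as a latent complex in which the ligand is held by its own propeptide and tethered to the matrix by latent TGF-beta binding proteins. Once released, a ligand brings the receptors encoded by Tgfbr2 and Tgfbr1 together, and SMAD proteins carry the signal to the nucleus, where they switch on matrix genes and their own inhibitor Smad7. In the optic nerve head the pathway is known for its part in matrix remodelling in glaucoma, and Tgfb2 is known as the main ligand of the nervous part of the eye.

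Array medians ran from 413.5 to 474.9. Gfap, the astrocyte filament gene, was bright on every array (10644 to 12631), as was the collagen gene Col1a1 of meninges and sclera (5600 to 7547). Markers of photoreceptors were present in unequal amounts, with a summed signal of 5 measured markers from 469 to 6499 in control and from 831 to 6889 in high IOP pools. High IOP replicate 1 stood apart, with a mean correlation of 0.974 with the other arrays, against 0.986 to 0.989 for the rest, and a Gapdh ratio, the signal of the control at the 3' end over that at the 5' end of the transcript, of 2.07, against 1.53 to 1.73. The same ratio for actin was 2.10 on that array, 2.13 on high IOP replicate 4 and from 1.65 to 1.94 on the others. High IOP replicate 1 was the lowest or the highest of the 10 arrays for 46.6% of all genes, and for 5 of the 10 genes described here. Values without it stand beside the results it moves. The table carries no detection calls here, so dim signals cannot be told from background, and levels are not compared between genes. In bulk tissue, fewer cells of a type and less RNA per cell cannot be told apart.

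No gene of the 10 differed between high IOP and control at a limma adjusted p under 0.05 (Benjamini-Hochberg over 12393 genes), and 0.0% of all genes did. At an unadjusted p under 0.05 there was 1 of the 10, Tgfb1, which was higher, where 3.97% of all genes reached that p and 2.65% of all genes did so on the higher side. In 0 of the 10 did the groups separate, where 0.629% of all genes had groups that did not overlap. Of the 10, 4 had a log2 fold change (high IOP minus control) above 0 and 6 below, with a median of -0.05 against -0.01 over all genes. The 95% confidence interval stayed under 1.5-fold either way for 6 of the 10 (76.8% of all genes) and under 2-fold for 9 (95.5% of all genes).

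**Figure D1:**
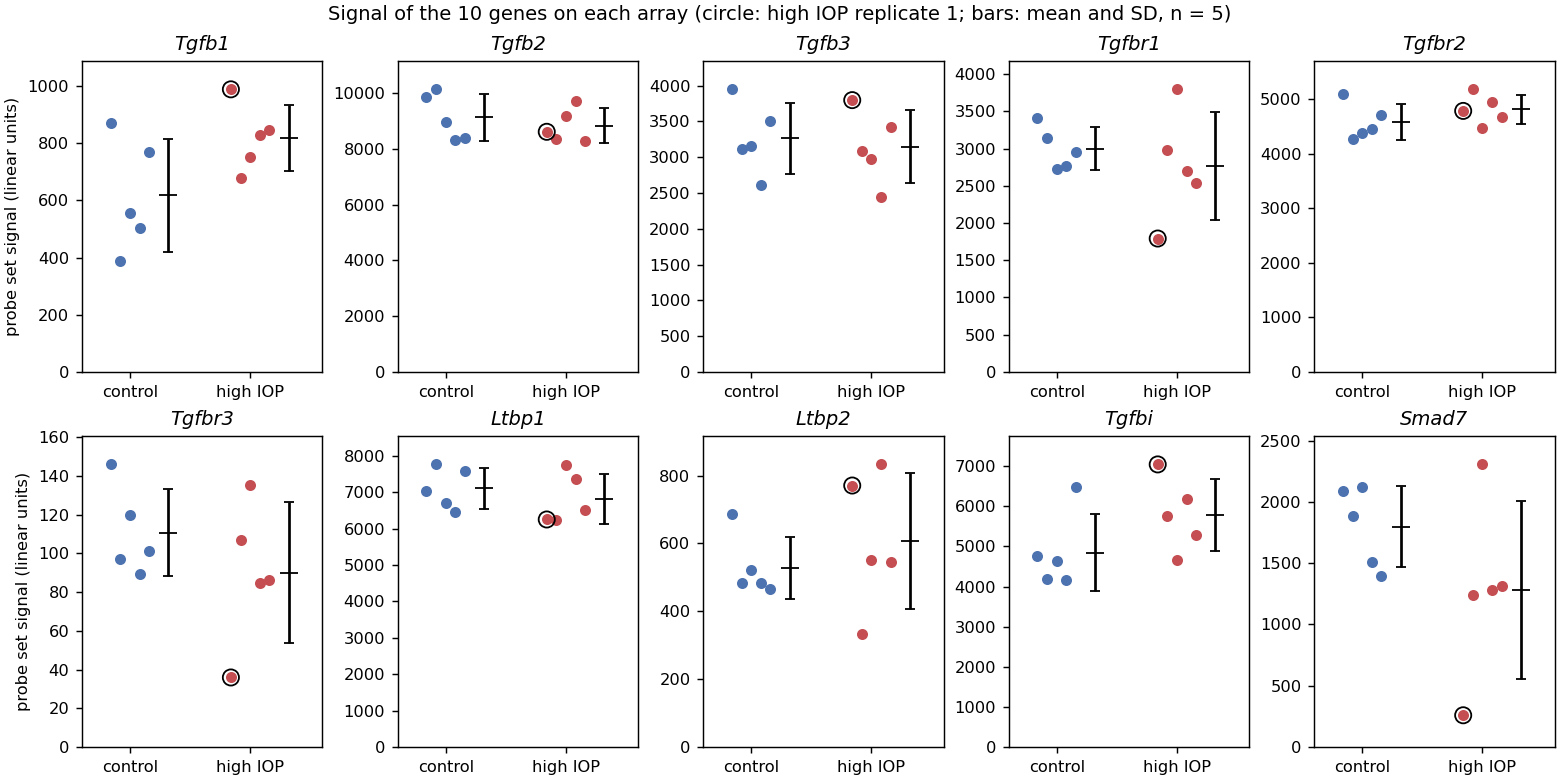
Probe set signal of each of the 10 genes on a linear axis from 0, with 1 point per array, 5 control and 5 high IOP arrays, the mean and SD at the right of each group, and a circle around high IOP replicate 1. The groups overlap for every gene, and the circled array is lowest for Tgfbr1, Tgfbr3 and Smad7 and highest for Tgfb1 and Tgfbi.

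Among the ligands, Tgfb1 was higher in the high IOP pools and Tgfb2 and Tgfb3 stood close to control. Tgfb1 (probe set 1420653_at), the ligand known from immune cells, platelets and wound repair, had signals of 870.7, 387.7, 556.1, 505.2 and 769.0 in control replicates 1 to 5 and of 989.1, 679.0, 752.6, 828.9 and 848.0 in high IOP replicates 1 to 5. All 5 high IOP pools lay above the control median, but control replicates 1 and 5 reached into their range, and 1 high IOP pool lay above every control. The means were 618 ± 198 (SD, n = 5) and 820 ± 116 (SD, n = 5), which gave a log2 fold change of 0.45 (standard error 0.201, 95% interval 0.00 to 0.89, unadjusted p = 0.0496, limma adjusted p = 0.849). The difference did not hold over all genes tested. The interval runs from no difference to 1.85-fold higher. Without high IOP replicate 1 the log2 fold change of Tgfb1 was 0.38 (limma unadjusted p = 0.106), and without control replicate 2, its lowest pool, 0.30 (limma unadjusted p = 0.119).

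Markers of oligodendrocytes ran against Tgfb1 and Tgfbi and with Smad7 and Tgfbr3 over the arrays, before adjustment. Of 6 such markers 5 were measured, all 5 had a log2 fold change below 0 with and without high IOP replicate 1, and none was at 0. Other lists leaned to 1 side too. Without that array endothelium had 6 higher and 0 lower, photoreceptors 5 and 0, and astrocytes 1 and 6. Microglia and macrophages had 3 and 3. The summed signal of the oligodendrocyte markers ran from 40234 to 51210 in control and from 33038 to 46961 in high IOP pools, or from 41877 without high IOP replicate 1. The marker score, the mean log2 deviation of the list per array, averaged 0.12 in control, was -0.76 on high IOP replicate 1 and averaged 0.04 on the 4 other high IOP arrays, so most of the lower mean in high IOP came from that array. The score had a Pearson r of -0.72 with Tgfb1 over 10 arrays (permutation p = 0.0205, adjusted over 110 pairs of gene and marker list p = 0.426) and a Spearman rho of -0.73 (permutation p = 0.0197, adjusted p = 0.535). Without the arrays farthest from the median of Tgfb1, control replicates 2 and 4, r was -0.85, and without high IOP replicate 1 it was -0.73. With that score as a covariate the log2 fold change of Tgfb1 was 0.26 (limma unadjusted p = 0.170). The score of mural cells, the smooth muscle cells and pericytes of vessel walls, had an r of 0.68 with Tgfb1 (permutation p = 0.0296, adjusted p = 0.426) and a rho of 0.71 (permutation p = 0.0268, adjusted p = 0.535). That r was 0.69 without the same pair of control arrays and 0.61 without high IOP replicate 1. With high IOP replicate 1 left out, Tgfb1 had an r of 0.85 with fibroblasts and 0.70 with endothelium. Over 10 arrays these were 0.37 and 0.27, and without control replicates 2 and 4 they were 0.10 and -0.05. For Tgfbi the r with the oligodendrocyte score was -0.72 (permutation p = 0.00861, adjusted p = 0.426) and rho -0.70 (permutation p = 0.0292, adjusted p = 0.535), with an r of -0.44 without control replicate 5 and high IOP replicate 1, its farthest arrays. For Smad7 r was 0.85 (permutation p = 0.0157, adjusted p = 0.426) and rho 0.42 (permutation p = 0.233, adjusted p = 0.753), with an r of 0.50 without high IOP replicates 1 and 3. For Tgfbr3 r was 0.74 (permutation p = 0.0416, adjusted p = 0.426) and rho 0.38 (permutation p = 0.278, adjusted p = 0.753), with an r of 0.35 without control replicate 1 and high IOP replicate 1. With only high IOP replicate 1 left out, r was -0.56 for Tgfbi, 0.37 for Smad7 and 0.09 for Tgfbr3. Other marker lists reached an unadjusted permutation p under 0.05 with Smad7 and Tgfbr3 too, so these relations were not particular to oligodendrocytes. For Smad7 r was 0.61 with astrocytes and 0.63 with endothelium, and for Tgfbr3 0.67 with endothelium and 0.63 with fibroblasts. Without high IOP replicate 1 these were 0.36, 0.30, 0.42 and 0.30. Against skeletal muscle rho was -0.77 for Smad7 and -0.78 for Tgfbr3. Over all 110 pairs no relation passed the adjustment, and the part of any marker list in the levels of the 4 genes was not tested beyond the covariate fits.

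Tgfb2 was bright and steady. Its brightest probe set (1450923_at) had signals of 9862, 10140.2, 8976, 8316 and 8380.1 in control and of 8616, 8349, 9193, 9735 and 8292 in high IOP replicates 1 to 5. The 10 arrays spanned 1.22-fold, and the within-group SD of 0.116 on the log2 scale was lower than that of all but 14.8% of genes. The log2 fold change was -0.05 (95% interval -0.24 to 0.15), so differences of more than 1.18-fold lower or 1.11-fold higher lay outside the interval. The 2 other probe sets of Tgfb2 had log2 fold changes of 0.04 and -0.12, the former of opposite sign. Only the latter had a low value on high IOP replicate 1, 3898 against 5167 to 6535 on the other arrays. Correlations between the 3 probe sets over the arrays ran from -0.46 to 0.55. The highest was between the brightest probe set and the one at -0.12, and the probe set at 0.04 correlated below 0 with both. Compression of differences at such bright signals was not tested.

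Tgfb3, the ligand known from wound healing and palate closure, had signals of 3948, 3114, 3152, 2615 and 3508 in control and of 3797, 3093, 2973, 2446 and 3428 in high IOP replicates 1 to 5. The groups overlapped over almost their whole range. Its log2 fold change was -0.06 (95% interval -0.36 to 0.25), with differences of over 1.28-fold lower or 1.19-fold higher outside the interval, and -0.13 (interval -0.43 to 0.17) without high IOP replicate 1.

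**Figure D2:**
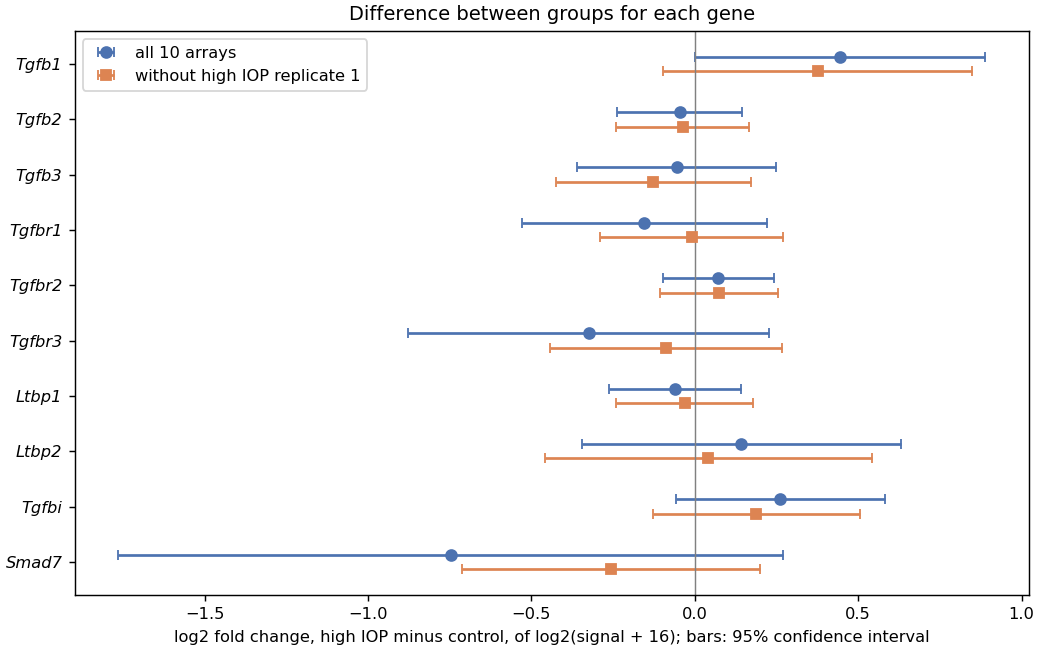
Log2 fold change of each gene, high IOP minus control on the scale log2(signal + 16), with its 95% confidence interval, for all 10 arrays (circles) and without high IOP replicate 1 (squares). Smad7 moves from -0.75 to -0.26 and Tgfbr3 from -0.32 to -0.09, while Tgfb1 stays above 0 (0.45 and 0.38) with an interval that then includes 0.

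Of the signalling receptors, Tgfbr2 stood near control, and Tgfbr1 was spread more widely in the high IOP group. Tgfbr2 encodes the receptor that binds the ligand and activates its partner. Its brightest probe set had signals of 5100.1, 4266, 4376, 4455 and 4717 in control and of 4789, 5185, 4471, 4949 and 4685 in high IOP replicates 1 to 5. All 5 high IOP pools lay above the control median, within a span of 1.22-fold over the 10 arrays. The log2 fold change was 0.07 (95% interval -0.10 to 0.24), the narrowest interval of the 10 genes. The 2 other probe sets of Tgfbr2 were dim, with mean signals of 33.1 and 63.1 in control and 26.2 and 62.1 in high IOP, and had log2 fold changes of -0.22 and -0.05, opposite in sign to the bright one.

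Tgfbr1, the partner that phosphorylates SMAD proteins, had signals of 3415, 3139.8, 2728, 2760.0 and 2957 in control and of 1792, 2986, 3797, 2695 and 2539.9 in high IOP replicates 1 to 5. The high IOP group held both the lowest and the highest array, with 3 pools below every control and 1 above. Its SD of 727 compared with 285 in control. The log2 fold change was -0.15 (95% interval -0.53 to 0.22), and -0.01 without high IOP replicate 1. The other 2 probe sets were dim (means from 56.5 to 67.4) and had log2 fold changes of -0.05 and -0.08.

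Tgfbr3 encodes betaglycan, a co-receptor that presents ligand, Tgfb2 above all, to the signalling receptors. It was dim, with signals of 146.0, 97.3, 120.1, 89.3 and 101.0 in control and of 35.9, 107.0, 135.6, 84.7 and 86.5 in high IOP replicates 1 to 5. High IOP replicate 1 lay well below the other 9 arrays, and the remaining high IOP pools lay within or just below the control range. The log2 fold change was -0.32 (95% interval -0.88 to 0.23), and -0.09 (interval -0.44 to 0.27) without that array. A value of 36 is close to the 16 added before the log, so a fold change on this scale understates differences of this gene.

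Of the binders, Ltbp1, which ties the latent complex to the matrix, was bright and steady, with signals from 6447 to 7761 in control (median 7038) and from 6233 to 7744 in high IOP (median 6522). Its log2 fold change was -0.06 (95% interval -0.26 to 0.14), and -0.03 without high IOP replicate 1. Ltbp2, a fibrillin-binding microfibril protein that is not known to hold latent TGF-beta itself and is a gene of inherited glaucoma, varied more. Its signals were 687.6, 482.9, 522.2, 481.9 and 466.6 in control and 770.5, 333.5, 551.4, 832.7 and 544.8 in high IOP replicates 1 to 5. The high IOP group reached beyond control on both sides, with 2 pools above every control and 1 below. The log2 fold change was 0.14 (95% interval -0.35 to 0.63), and 0.04 without high IOP replicate 1. Ltbp2 had an r of 0.74 with the mural cell score over 10 arrays (permutation p = 0.0138, adjusted over 110 pairs p = 0.426) and a rho of 0.79 (permutation p = 0.00855, adjusted p = 0.495). That r was 0.71 without the arrays farthest from the median of Ltbp2, high IOP replicates 2 and 4, and 0.68 without high IOP replicate 1. The relation was not particular to mural cells. Without high IOP replicate 1, r was 0.90 with retinal ganglion cells and axons and 0.63 with endothelium. Over 10 arrays these were 0.59 and 0.20, and without high IOP replicates 2 and 4 they were -0.10 and -0.08. Of 5 measured mural cell markers 3 were higher and 2 lower, with a summed signal from 9499 to 13336 in control and from 9181 to 12801 in high IOP, and their part in the level of Ltbp2 was not tested.

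Tgfbi, a secreted matrix protein named for its induction by TGF-beta, was measured by 4 probe sets that followed each other over the arrays, with correlations between them from 0.90 to 0.99. The brightest (1437463_x_at, whose suffix marks probes that may match other transcripts) had signals of 4753, 4181, 4638, 4157 and 6485 in control and of 7044, 5767, 4659, 6170.1 and 5294 in high IOP replicates 1 to 5. All 5 high IOP pools lay above the control median, and control replicate 5 lay above 4 of them. The means were 4843 ± 956 (SD, n = 5) and 5787 ± 900.3 (SD, n = 5), which gave a log2 fold change of 0.26 (standard error 0.145, 95% interval -0.06 to 0.58, limma adjusted p = 0.849). The 3 other probe sets had log2 fold changes of 0.23, 0.21 and 0.28. The 4 share their RNA and are not replicates. Without high IOP replicate 1 the log2 fold change of the brightest was 0.19 (interval -0.13 to 0.50), and without control replicate 5 it was 0.37 (limma unadjusted p = 0.0131, adjusted p = 0.814). With the oligodendrocyte score as a covariate it was 0.14 (limma unadjusted p = 0.323).

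Smad7, the inhibitory SMAD that blocks the receptors and is itself induced by the pathway, varied most among the 10 genes over all 10 arrays. Its signals (probe set 1423389_at) were 2087, 1880.4, 2121, 1506 and 1394 in control and 258, 1243, 2305, 1279 and 1309.8 in high IOP replicates 1 to 5. The 4 high IOP pools other than replicate 3 lay below every control, and replicate 3 lay above every control. The means were 1798 ± 333 (SD, n = 5) and 1279 ± 724 (SD, n = 5), which gave a log2 fold change of -0.75 (standard error 0.461, 95% interval -1.76 to 0.27, limma adjusted p = 0.849). Its within-group SD of 0.839 on the log2 scale was higher than that of 99% of all genes. Smad7 spanned 8.92-fold over the 10 arrays, mostly through high IOP replicate 1. On the other arrays it ran from 1243 to 2305, in proportion a narrower range than that of Tgfb1 (388 to 871) or Ltbp2 (333.5 to 833). Without high IOP replicate 1 the log2 fold change of Smad7 was -0.26 (interval -0.71 to 0.20), and without high IOP replicate 3, its highest pool, -1.03 (limma unadjusted p = 0.0419, adjusted p = 0.561). With the Gapdh ratio as a covariate, chosen after seeing the data, it was 0.06. With the oligodendrocyte score as a covariate it was -0.21.

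Over the 10 arrays Tgfbr1, Tgfbr3 and Smad7 were high and low together, and Tgfbi ran against Smad7. All 45 pairs of the 10 genes were compared, and 4 had a Pearson r that passed a permutation test after Benjamini-Hochberg adjustment over them. For Tgfbr3 and Smad7 r was 0.95 (permutation p = 0.00125, adjusted p = 0.0281) and rho 0.75 (permutation p = 0.0175, adjusted p = 0.245). For Tgfbr1 and Tgfbr3 r was 0.93 (permutation p = 0.00116, adjusted p = 0.0281) and rho 0.82 (permutation p = 0.00598, adjusted p = 0.245). For Tgfbr1 and Smad7 r was 0.89 (permutation p = 0.00291, adjusted p = 0.0372) and rho 0.65 (permutation p = 0.049, adjusted p = 0.245). For Tgfbi and Smad7 r was -0.72 (permutation p = 0.00331, adjusted p = 0.0372) and rho -0.71 (permutation p = 0.027, adjusted p = 0.245). No pair passed by Spearman's rho. The size of the first 3 rested in part on high IOP replicate 1, without which r was 0.78, 0.78 and 0.67, and -0.66 for Tgfbi and Smad7. Without the arrays farthest from the median of the gene named first, r was 0.76, 0.72, 0.50 and -0.65 in the same order. As deviations from the group means, with high IOP replicate 1 kept in, r was 0.94, 0.92, 0.89 and -0.65. How often pairs of any genes of the whole table reach such an r was not computed, so the count of 4 has no share beside it. High IOP replicate 1 was the lowest array for 28.5% and the highest for 18.1% of all genes. Probe sets on the same arrays share RNA, labelling and scaling, and a shared technical part was not tested.

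**Figure D3:**
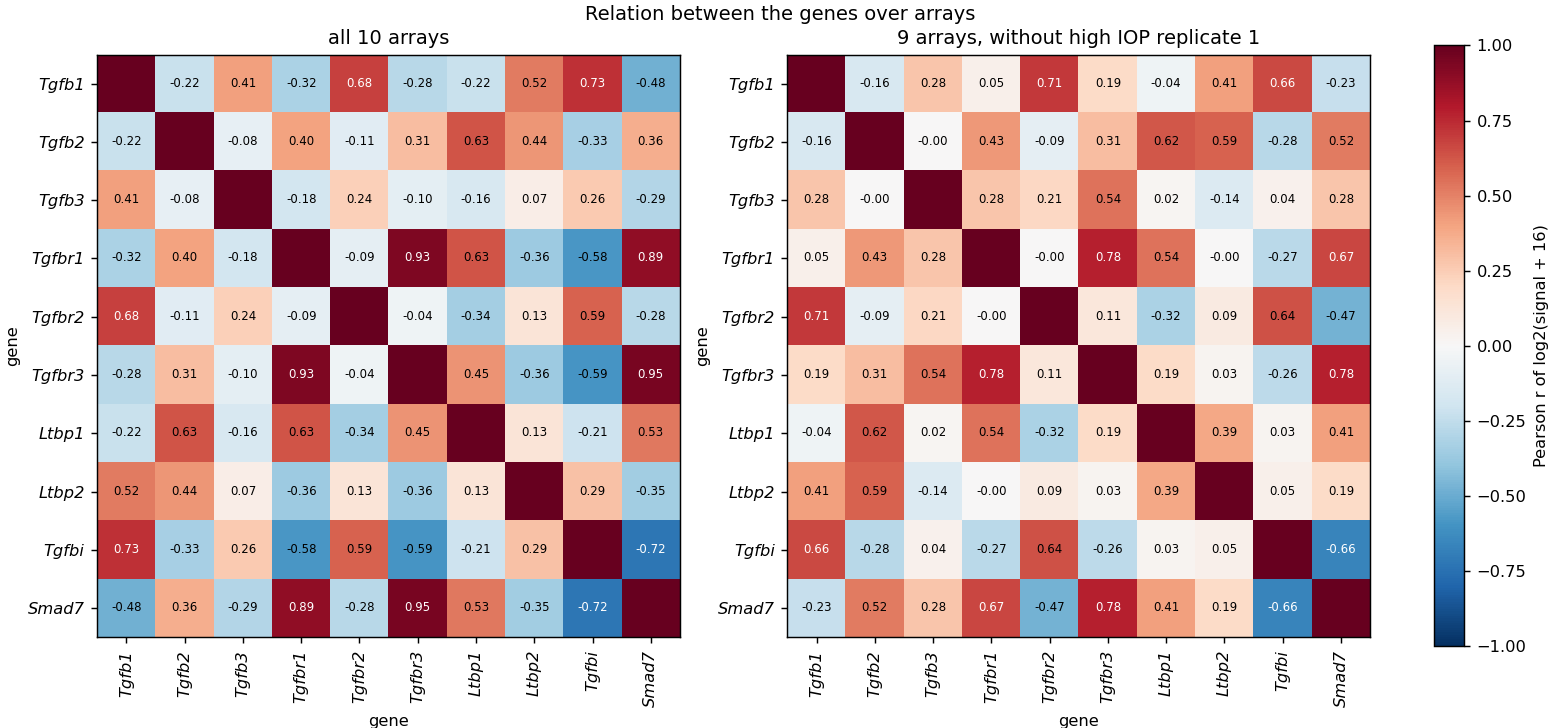
Pearson r of log2(signal + 16) between each pair of the 10 genes, over all 10 arrays at the left and over 9 arrays without high IOP replicate 1 at the right, with red above 0 and blue below. The block of Tgfbr1, Tgfbr3 and Smad7 goes from 0.89 to 0.95 at the left to 0.67 to 0.78 at the right.

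Tgfb1 and Tgfbi also ran together, with an r of 0.73 (permutation p = 0.0147, adjusted over 45 pairs p = 0.133) and a rho of 0.75 (permutation p = 0.0173, adjusted p = 0.245), which did not pass. Their r was 0.66 without high IOP replicate 1, 0.62 as deviations from the group means, and 0.51 without control replicates 2 and 4, where Tgfb1 was lowest. Tgfb1 and Tgfbr2 had an r of 0.68 (permutation p = 0.0304, adjusted p = 0.228) and a rho of 0.65 (permutation p = 0.0484, adjusted p = 0.245), and r was 0.40 without control replicates 2 and 4.

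**Figure D4:**
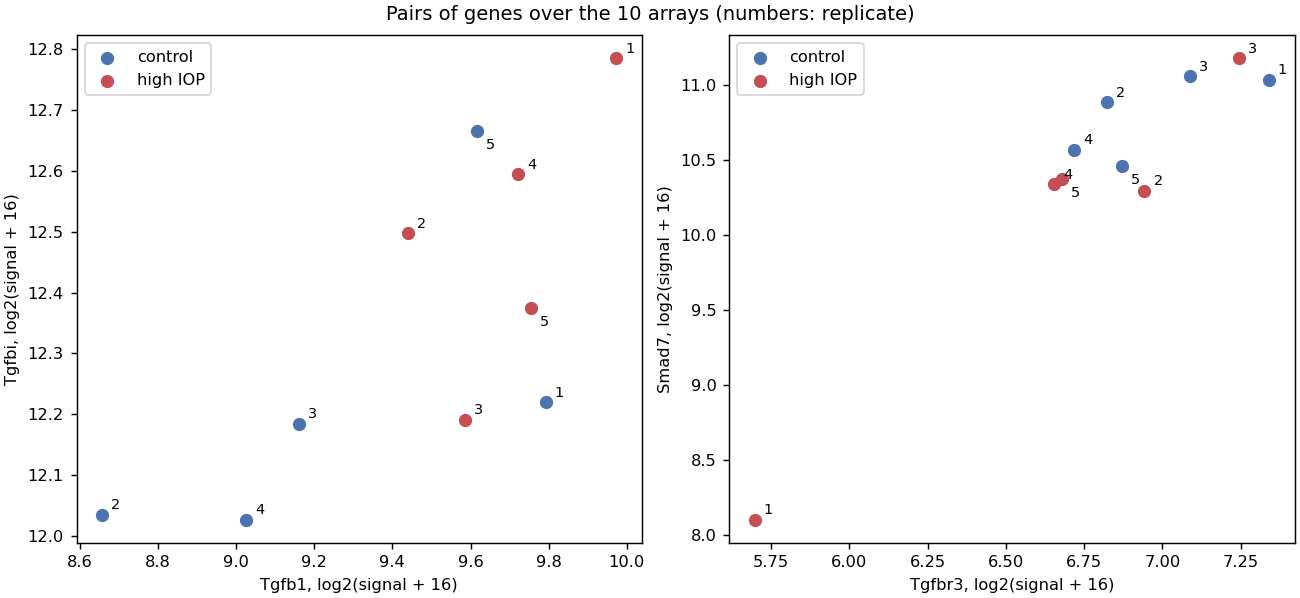
Tgfbi against Tgfb1 (left) and Smad7 against Tgfbr3 (right), each as log2(signal + 16), with 1 point per array numbered by replicate and coloured by group. At the left the points spread along the whole range (r = 0.73), and at the right high IOP replicate 1 lies far below the other 9 arrays (r = 0.95 with it and 0.78 without).

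The upstream sequences of Tgfb1 and Tgfbi are shown because they were the pair of a ligand and its named target that ran together with log2 fold changes above 0. Each is the 250 bases before the annotated start, 5′ to 3′, from RefSeq on GRCm38.p6, and capitals mark matches on either strand to the SMAD element CAGAC (reverse GTCTG) or the GC box GGGCGG (reverse CCGCCC), which do not share letters. The Tgfb1 window is chr7:25686752-25687001 on the + strand and the Tgfbi window chr13:56609336-56609585 on the + strand.
Tgfb1: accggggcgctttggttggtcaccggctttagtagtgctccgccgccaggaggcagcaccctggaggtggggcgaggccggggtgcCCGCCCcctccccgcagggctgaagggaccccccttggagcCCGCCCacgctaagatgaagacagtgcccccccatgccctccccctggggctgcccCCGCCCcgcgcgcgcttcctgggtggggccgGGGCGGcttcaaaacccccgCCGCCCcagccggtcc
Tgfbi: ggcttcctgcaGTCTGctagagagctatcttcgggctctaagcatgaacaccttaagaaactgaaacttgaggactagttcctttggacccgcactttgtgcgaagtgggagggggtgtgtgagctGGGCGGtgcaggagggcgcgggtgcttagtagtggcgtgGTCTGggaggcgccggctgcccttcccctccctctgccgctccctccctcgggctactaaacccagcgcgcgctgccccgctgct
The Tgfb1 window held 5 GC boxes and 0 SMAD elements, and the Tgfbi window 1 GC box and 2 SMAD elements. Windows of the same length held a SMAD element in 42.1% and a GC box in 32.9% of 27025 genes, so each short motif is common. The AP-1 motif TGACTCA (reverse TGAGTCA) was in neither window and in 4.43% of all. Of the 10 genes, 7 had a window in the table (the first listed was used), of which 5 held a SMAD element, 4 a GC box and 0 the AP-1 motif. A match describes letters only, and no binding was measured here.

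By a fixed rule the 3 genes of the whole table most like each of the 3 of the 10 genes with the widest range over the arrays were listed, by Pearson r over 10 arrays and as a description. Those most like Tgfb1 were Snai1, a transcription factor of epithelial to mesenchymal change (0.96), the transporter gene Slc43a3 (0.95) and the basement membrane collagen gene Col4a1 (0.95), with r of 0.93 to 0.95 when high IOP replicate 1 was left out. Those most like Smad7 were Peg10 (0.996), the glucocorticoid receptor gene Nr3c1 (0.99) and Ptgr2 (0.99). Those most like Tgfbr3 were Rcc1 (0.98), Spg20 (0.97) and Med27 (0.97). Without that array the values were 0.97, 0.93 and 0.93 for Smad7 and 0.91, 0.88 and 0.88 for Tgfbr3. All 9 were picked as the highest among the other genes tested.

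Of 53 other pathway genes 46 were measured, and 0 of them differed at a limma adjusted p under 0.05 (0.0% of all genes). At an unadjusted p under 0.05 there were 4 of 46, all higher in high IOP, against 2.65% of all genes on that side, and 0 lower, against 1.32%. Their median log2 fold change was 0.04, with 25 higher and 21 lower, against -0.01 over all genes. Without high IOP replicate 1, 2 of the 46 were higher at an unadjusted p under 0.05 and 0 lower. The split by direction moved too. Smad4 turned from -0.02 to 0.02 without that array, and the turns of Mmp9 and of target genes are given below.

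Genes of latency and activation of the ligands held 2 of these 4. Of 13 measured, 9 were higher and 4 lower, with a median of 0.17, where 47.3% of all genes were higher. Among the 9, Mmp9 turned from 0.08 to -0.06 without high IOP replicate 1. Ltbp4 then went from 0.215 to 0.097 and Mmp14 from 0.17 to 0.04, while Itgb5 went from 0.14 to 0.15. The upward lean of this role thus rested in part on that array. Emilin1, a matrix protein that blocks processing of the TGF-beta precursor, had signals of 788.0, 677.5, 668.1, 642.9 and 948.0 in control and of 1355.9, 1022.0, 830.4, 915.6 and 956.7 in high IOP replicates 1 to 5. Of the high IOP pools 3 lay above every control, and the log2 fold change was 0.43 (95% interval 0.11 to 0.76, limma unadjusted p = 0.0131, adjusted p = 0.849), and 0.33 (interval 0.05 to 0.60) without high IOP replicate 1. Nrros, which tethers latent TGF-beta 1 on microglia and macrophages, averaged 171 ± 36.8 (SD, n = 5) in control pools and 225 ± 46.8 (SD, n = 5) after high IOP, a log2 fold change of 0.37 (95% interval 0.01 to 0.72). Without high IOP replicate 1 it was 0.27 with an interval that includes 0 (-0.07 to 0.61, limma unadjusted p = 0.105). Mmp2, a protease able to release latent ligand, had a log2 fold change of 0.61 with a wide interval (-0.05 to 1.27), or 0.44 without that array, and its control signals ran from 1096 to 3274.

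Among the 4 accessory receptors, Eng, the endothelial co-receptor endoglin, had signals of 1741.6, 963.6, 1297.3, 1446.0 and 1208.9 in control and of 2500.8, 1344.3, 1602.5, 1601.0 and 1912.9 in high IOP replicates 1 to 5, with a log2 fold change of 0.42 (95% interval 0.01 to 0.83). Only 2 high IOP pools lay above every control. Leaving out high IOP replicate 1, the highest pool, gave 0.29 with an interval that includes 0 (-0.08 to 0.66, limma unadjusted p = 0.108). Acvrl1, the endothelial receptor that signals with endoglin, stood at 0.12 (interval -0.17 to 0.42), and Cd109, a co-receptor that dampens the signal, at -0.12 (interval -0.44 to 0.19).

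Of the 4 matrix proteins that bind the ligands, 3 had an interval under 1.5-fold either way. These proteoglycan genes, Bgn, Fmod and Dcn, had log2 fold changes of 0.08, 0.06 and -0.09, and of 0.04, 0.09 and -0.02 without high IOP replicate 1. The fourth, Aspn, had control signals from 474.7 to 1703 and a log2 fold change of 0.05 with a wide interval (-0.66 to 0.76). Of the 7 measured genes of signal transduction and its inhibitors 2 were higher and 5 lower (median -0.10). The signal carrier Smad2 stood at -0.10 (interval -0.31 to 0.11) and the SMAD repressor Ski at -0.11 (interval -0.34 to 0.12). The repressor Tgif1 stood at -0.44 (interval -1.14 to 0.27), with 85.8 on high IOP replicate 1 against 266.1 to 406.2 on the other arrays. Without that array, on which Smad7 was low too, its log2 fold change was -0.10 (interval -0.43 to 0.23, limma unadjusted p = 0.505).

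Over all 10 arrays target genes were close to evenly split, with 8 of 18 higher, 10 lower and a median of 0.00. The split moved without high IOP replicate 1. Col1a1 (0.005), Col3a1 (0.02), Fn1 (0.06), Id1 (0.05) and Snai2 (0.02) then turned above 0, and Col1a2 (-0.01) below. Over all 10 arrays Id1 stood at -0.20 and Snai2 at -0.16. Junb, an immediate early transcription factor gene, had signals of 105.4, 99.2, 101.8, 138.0 and 165.9 in control and of 128.3, 133.1, 222.2, 220.0 and 164.2 in high IOP replicates 1 to 5, a log2 fold change of 0.45 (95% interval 0.04 to 0.85, limma unadjusted p = 0.0336, adjusted p = 0.849), and 0.54 (interval 0.13 to 0.95) without high IOP replicate 1. Only 2 high IOP pools lay above every control. Col4a1 stood at 0.18 (interval -0.08 to 0.45) and the cell cycle inhibitor gene Cdkn2b at 0.16 (interval -0.14 to 0.46), or 0.04 without high IOP replicate 1. For Col1a1, Col1a2, Col3a1 and Fn1, the collagen and fibronectin genes that TGF-beta is best known to induce, log2 fold changes were -0.02, 0.01, 0.00 and 0.00, and the intervals reached at most 0.22 in size.

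**Figure D5:**
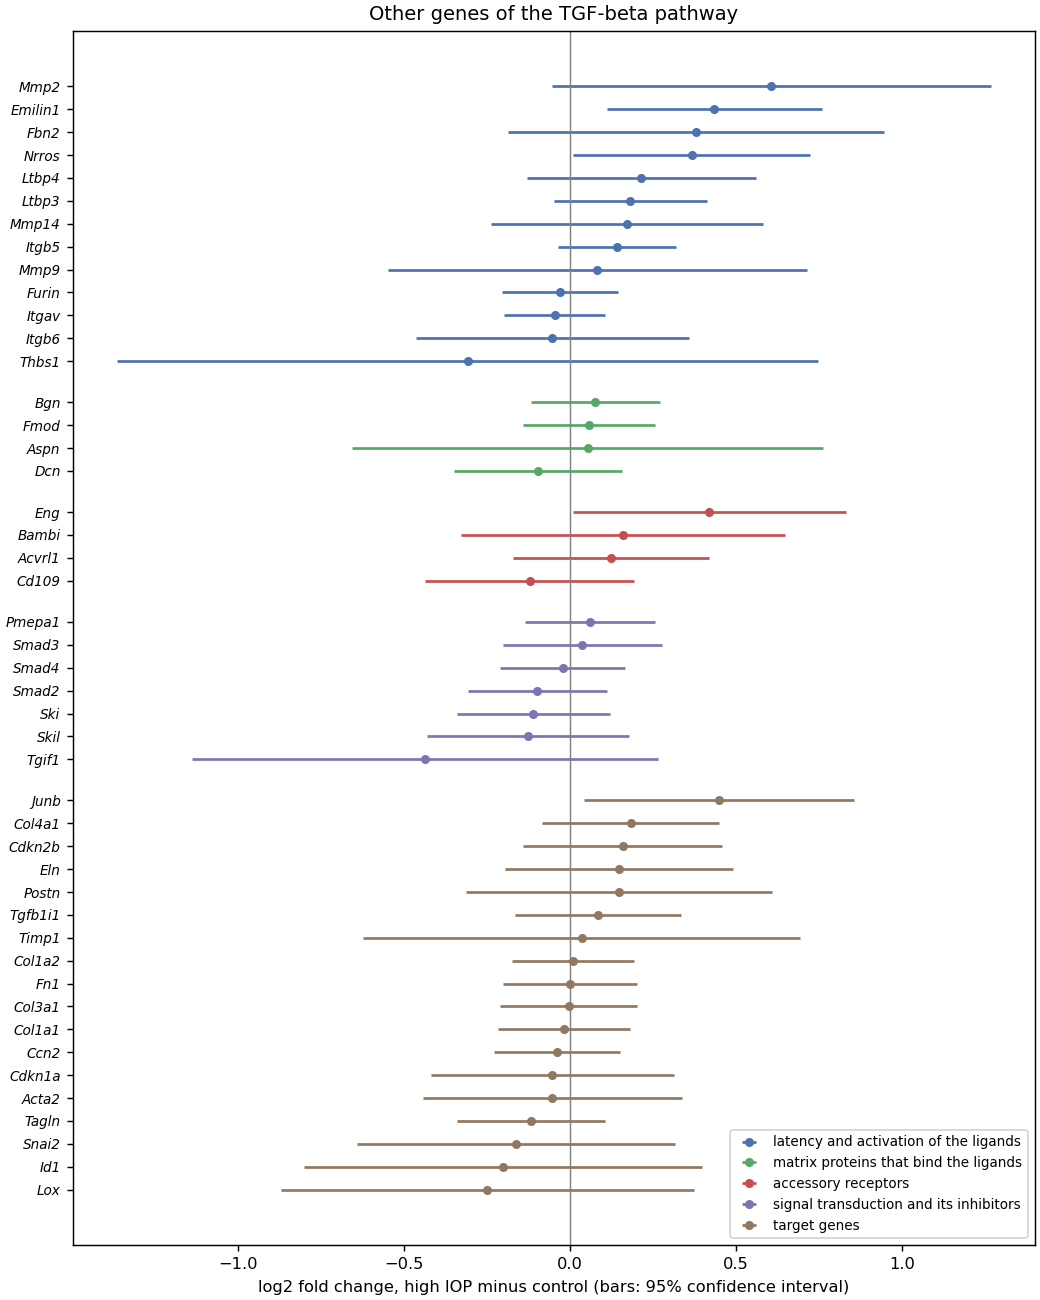
Log2 fold change, high IOP minus control, with its 95% confidence interval for the 46 other pathway genes measured, coloured by role and ordered by value within each role. Intervals of 4 genes, Emilin1, Nrros, Eng and Junb, lie above 0 before adjustment, and none lies below 0.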

How the data were processed

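Amplified, biotin-labelled total RNA of each pool was hybridised to 1 array, per the labels' protocols. The values, as deposited by the authors, are linear intensity per probe set (22690 on each of 10 arrays). How they were background-corrected, summarised and normalized is not stated in these sources, and array medians were unequal. The labels call the pools biological replicates without naming the mice in each, and no batch or scan time was given.

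Control probe sets (64) were left out. Of the other 22626, 20380 had 1 gene symbol in the platform annotation, 691 several and 1555 none. Values were put on the scale log2(signal + 16), and a gene was represented by its brightest probe set on average, chosen blind to group, with no filter on dim genes. The comparison used limma 3.58.1 in R 4.3.3 (lmFit, then eBayes) without covariates, with Benjamini-Hochberg adjustment over 12393 genes at 0.05, and intervals are at 95%. The fit on single probe sets ran over all 22626. Correlations used 100000 permutations. On simulated data with 5 and 5 arrays and 200 genes changed, the gene test recovered 83.8% of genes changed by 1 and 38% of those changed by 0.5 on the log2 scale. The noise was drawn separately for each gene and array, with no array set apart as high IOP replicate 1 was. These rates are averages over all genes and do not give the rate for the more variable genes described here. The within-group SD of Smad7, Tgfbr3 and Tgfb1 was higher than that of 99%, 91% and 82.3% of genes. Python 3.11.15, pandas 2.3.3, SciPy 1.17.1 and Matplotlib 3.10.9 were used.

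The genes and lists were chosen with earlier results of these data known. The 10 genes are named whatever their value, and of the other pathway genes the 3 with the smallest p per role. Some others were named after their values were seen: Mmp9, Mmp14, Ltbp4, Itgb5, Aspn, Smad4, Id1, Snai2, Col1a1, Col1a2, Col3a1 and Fn1. Of the 53 listed pathway genes 7 were not analysed here, nor were 2 of the 4 genes set for the check of the tissue. The labels do not say whether equal replicate numbers are eyes of the same mice, so the arrays were compared without pairing and a replicate block was an alternative. Alternatives were another pseudocount, normalization, probe set rule, dim filter (lowest 25%), variance model, array weights, a replicate block, marker scores or the Gapdh ratio as covariates, and leaving out arrays.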

Additional observations from a re-analysis of the deposited data

Results flagged for a closer look

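Among 50 groups examined (25 named genes in each group of 5 arrays), 5 held an array far from the other 4 by Dixon's test on the log2 scale, where chance gives about 1 in 20. In high IOP replicate 1, Smad7 was lowest at a signal of 258.4, Tgif1 lowest at 85.8, Dcn lowest at 6938.7 and Bgn highest at 10247.5. In control replicate 1, Ltbp2 was highest of its group at 687.6.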

How the results depend on the processing

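Under all 28 alternatives 0 genes of the table, and so 0 of the 10 genes and 0 of the 46 pathway genes, passed a limma adjusted p under 0.05, where 299 to 1044 genes had an unadjusted p under 0.05 (1004 of 22626 probe sets among them). The count of the 10 genes at an unadjusted p under 0.05 was 1 as reported, 0 with a pseudocount of 1, with the photoreceptor score, the oligodendrocyte score or the Gapdh ratio as a covariate, and from 0 to 2 with arrays left out. Tgfb1 lost that p without control replicate 2, 3 or 4 or without high IOP replicate 1, 3, 4 or 5. With the replicate block the count was 1 (Tgfb1, limma unadjusted p = 0.00989, adjusted p = 0.888) and 451 of all genes had an unadjusted p under 0.05, against 492 without it. Whether equal numbers pair the arrays is not known: same-numbered deviations from the group means correlated from -0.08 to 0.213, 2 of 5 pairs were above 0.1 (the 2 highest of all pairs of a control and a high IOP array), and 4 of 10 arrays correlated best with their own number. The log2 fold changes of 25 named genes kept their sign in 681 of 700 fits, among them all fits of Tgfb1 (0.26 to 0.58) and Tgfbi (0.10 to 0.40). With the Gapdh ratio as a covariate the sign turned for Tgfbr1 (0.10), Tgfbr3 (0.08), Ltbp2 (-0.11), Smad7 (0.06), Dcn (0.02), Tgif1 (0.11) and Cdkn2b (-0.05). With arrays left out (ranges over all such fits in brackets) it turned for Tgfbr1 (-0.31 to 0.04), Tgfbr3 (-0.47 to 0.00) and Dcn (-0.16 to 0.04, each without both arrays of replicate 1), for Tgfb2 (-0.11 to 0.01) and Ltbp1 (-0.13 to 0.00, without those of replicate 2), for Ltbp2 (-0.01 to 0.33) and Fmod (-0.03 to 0.13, without those of replicate 4), and for Tgfb3 (-0.13 to 0.03), without control replicate 1 (0.02) or high IOP replicate 4 (0.03). Tgfb3 also turned with the photoreceptor score (0.00), Ltbp2 with the oligodendrocyte score (-0.03) and Tgfbr2 with the mean over its probe sets (-0.07). The cause of these turns was not tested. The number of arrays limits the precision.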
